A study of Mus musculus with 2 samples.

Results

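Unannotated splice junctions that join 1 known splice site to 1 new splice site were described in the brain of the mouse embryo. A member was a junction tagged as unannotated, supported by 10 or more reads at a reproducibility value of 0.1 or less, of which exactly 1 end matched the end of an annotated intron on the same strand. These rules chose 17873 of the 1213972 junctions in the table. They were 47.0% of the 38027 unannotated junctions that passed both thresholds, beside 14161 junctions (37.2%) with both sites new and 5993 (15.8%) that joined 2 known sites in an unlisted way. The members were thus selected on their reads, their reproducibility value and the annotation tag, and these values are given as descriptions, with no test.

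The RNA came from whole brains of C57BL/6J embryos of 14.5 days, littermates of mixed sex per the labels, and 2 libraries of polyadenylated RNA longer than 200 nt were sequenced in pairs with strand kept. Both libraries belong to 1 group, for which no genotype or treatment is named, and no contrast between conditions exists. The labels number them as biological replicates yet tie both to the same donor record, so the spread between them may be technical. The junction table carries a read number for each replicate in fields called R1 and R2, and the sources used here do not tie either field to a library, so the fields are given by their own names. Beside the junctions, gene levels in TPM, scaled by transcript length and library total, were available for replicate 1 and replicate 2. The tissue label went with its markers: Tubb3, a neuronal tubulin, averaged 2696 ± 79.8 TPM, Dcx, of migrating neurons, 218 ± 28.6 TPM, and Fabp7, of radial glia, 814 ± 68.5 TPM (SD, n = 2). Transcripts of other cells were also present, with Ttr, of choroid plexus, at 1165 ± 242 TPM and Hbb-y, of embryonic red cells, at 335.5 ± 108 TPM, and the 6 markers of this kind ranged from 20.9 to 1336 TPM over both libraries. Of these, Col1a1, of connective tissue, differed by the largest ratio between the libraries, with 146 TPM in replicate 2 and 36.5 TPM in replicate 1. The part of such cells in the junctions and in the balance of R1 and R2 was not tested.

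An intron is removed between a donor site at its 5′ end, which usually begins with GT, and an acceptor site at its 3′ end, which usually ends in AG. A cell can pair a known donor with another acceptor nearby, pair a known acceptor with another donor nearby, include an exon within an intron, or start or end the transcript outside the known gene, and each of these yields a junction with 1 new site. Where the new site lies within coding sequence, a shift by a multiple of 3 nt adds or removes whole codons, and any other shift moves the reading frame. Neurons are known for frequent use of very short exons, called microexons, in genes of synapses, adhesion and the cytoskeleton.

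Some members place the new site a few bases from the known one at an exon edge, and the following stretches of coding sequence show this at exons where the new site took a sizeable part of the reads. They were read from GENCODE vM21 transcripts (mm10 annotation) by their place in the exon and run 5′ to 3′ along the mRNA. Capitals mark the bases between the annotated and the new site: they stay in the mRNA when the annotated site is used and are absent when the new one is. For a new acceptor the capitals stand at the start of the downstream exon, and for a new donor at the end of the upstream exon.
Fxyd6, new acceptor: tcctggcgagtgCAGctgagaaggaga
Nyap1, new acceptor: aggaagtggacaCAGaagaggacggtg
Sgta, new acceptor: acttccagcaagCAGgagatgccacag
Ptbp2, new acceptor: taagttttttcaAAGagatcacaaaat
Tmeff1, new acceptor: cagatgtgaaagATGCAGgtgatgaaaggg
Atxn2l, new acceptor: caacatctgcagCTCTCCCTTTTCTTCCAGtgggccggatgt
Elavl3, new acceptor: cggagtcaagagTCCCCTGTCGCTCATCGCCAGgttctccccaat
Ddx17, new donor: gcggaggaggggGTAAGGgaggccgctcac
Neurl4, new donor: gcttgcctccggGTAAAGaggtgtatgcag
Srsf7, new donor: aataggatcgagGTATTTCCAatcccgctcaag
Plppr2, new donor: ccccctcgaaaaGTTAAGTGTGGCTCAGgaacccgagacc
In each acceptor stretch shown the capitals close with AG, the usual end of an intron. In each donor stretch shown they open with GT, the usual start of an intron. The capitals of Plppr2 span 16 nt, which is no multiple of 3, and those of the other 10 stretches span multiples of 3.

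New acceptors and new donors were almost equally frequent. Of the 17873 members, 9251 (51.8%) had a new acceptor and 8622 (48.2%) a new donor, at 17425 distinct new sites. Only 398 new sites (2.28%) were reached from 2 or more known sites, and the most from 1 site was 5. A new site lay within an annotated exon of its host gene, the gene that owns the known site, in 6912 members (38.7%). It lay within an intron in 9599 (53.7%), before the gene in 816 (4.57%) and beyond its end in 546 (3.05%). The kinds of site differed in this. Of the new acceptors 47.9% lay in an exon of the host gene, while 28.8% of the new donors did. All sites before the gene were donors and all sites beyond its end were acceptors, as the geometry of a junction with 1 known end requires.

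The distance of each new site was measured to the nearest annotated site of the same kind in the host gene, with a positive sign for downstream. The median distance was 140 nt (quartiles 19 and 949). New acceptors lay nearer, at a median of 62 nt, than new donors, at 276 nt. Within 100 nt were 8251 members (46.2%), which included 56.6% of the new acceptors and 35.0% of the new donors. Distances of 1 to 3 nt held 1582 members (8.85%), of which 1293 were acceptors and 289 donors. A further 2228 (12.5%) lay 4 to 12 nt away, 4441 (24.8%) 13 to 100 nt and 5267 (29.5%) over 100 and up to 1000 nt. Farther out, 2955 (16.5%) lay up to 10 kb, 1022 (5.72%) 10 to 100 kb and 378 (2.11%) over 100 kb away. The longest distances thus made up a small part, and nearly all of those lay outside the host gene.

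**Figure D1:**
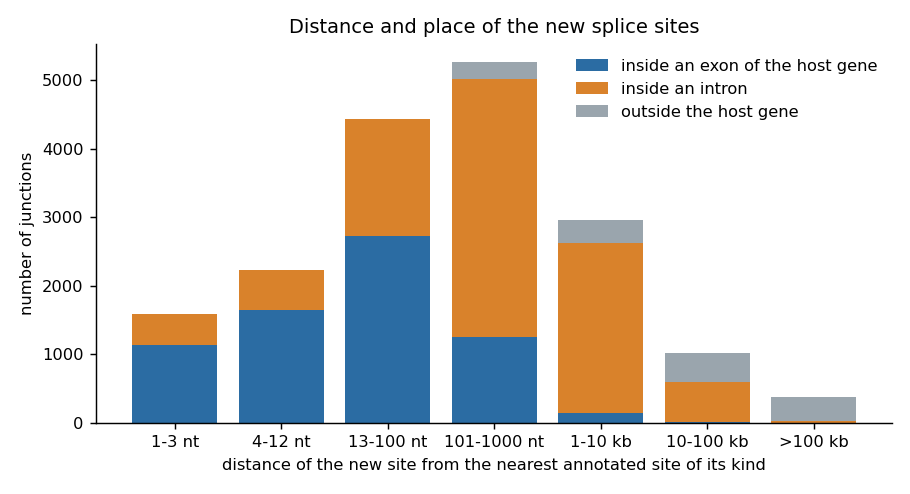
Number of members (vertical axis) in each class of distance between the new site and the nearest annotated site of its kind (horizontal axis, nt), with colours for the place of the new site. Sites in exons hold most of the short distances, sites in introns most of those over 100 nt, and 356 of the 378 members over 100 kb away lie outside the host gene.

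Single distances stood out among the acceptors. The offset of +3 nt alone held 754 new acceptors, followed by +4 nt with 482, -3 nt with 274 and +5 nt with 273, while +6 nt held 138 and +2 nt 107. Among donors the most frequent offsets were +4 nt with 189 and -4 nt with 136. So 3 nt led among acceptors and 4 nt, which is no whole number of codons, among donors. A tag called C, whose meaning the sources used here do not give, was 1 in 96.0% of the members and in 99.7% of the annotated junctions, while it was 1 in 43.5% of those with both sites new. The bases read at exonic sites show what goes with it: of members with C = 1, 3958 of 3962 new acceptors (99.9%) followed AG and 2090 of 2097 new donors (99.7%) preceded GT. With C = 0, AG stood at 11 of 98 acceptors (11.2%), and at 120 donors GT stood at none and GC at 79 (65.8%). The 715 members with C = 0 crowded near known sites, with 74.5% of them within 12 nt against 19.1% of those with C = 1. At a distance of 1 nt there were 259 with C = 0 and 17 with C = 1. Whether shifts in read alignment at known junctions produced such members was not tested.

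**Figure D2:**
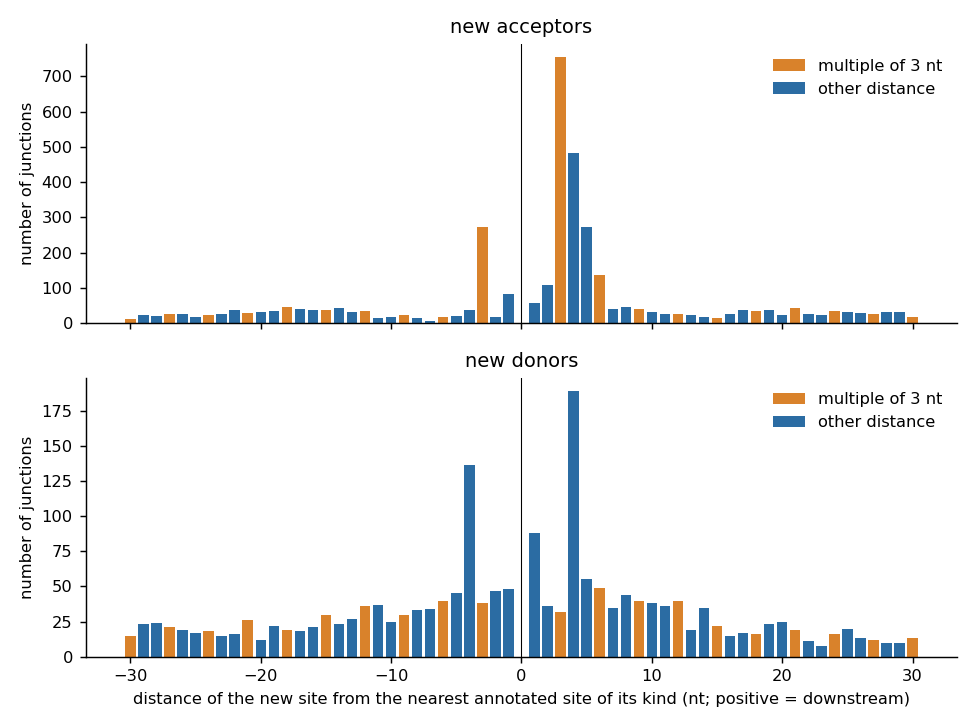
Number of members (vertical axis) at each distance of the new site from the nearest annotated site of its kind (horizontal axis, nt, positive for downstream), new acceptors above and new donors below, with colours for multiples of 3. New acceptors peak at +3 nt with 754 members and at +4 nt with 482, and new donors at +4 nt with 189 and -4 nt with 136.

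Tandem acceptors 3 nt apart are known as NAGNAG sites, since both ends read as any base followed by AG. At offset +3, 674 members with C = 1 had readable bases, and the 3 bases between both sites were CAG in 318 (47.2%), AAG in 231 (34.3%), GAG in 64 (9.50%) and TAG in 60 (8.90%). The use of the new site differed with these bases. Its median share of the reads at the known donor was 12.2% where they were CAG, 10.2% for TAG, 3.61% for AAG and 1.59% for GAG. Across offsets, the median share was 6.87% at +3 nt and 14.6% at -3 nt, against 2.47% at +4 nt and 2.58% at +5 nt.

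The share of a member is its part of all junction reads that use its known site, over both fields summed, and 17701 members had 20 or more reads at that site. The median share was 4.48%, with 4.51% in R1 and 4.06% in R2. It was below 1% in 2803 members (15.8%) and 50% or more in 1154 (6.52%), of which 965 reached 50% in both fields. A single member's share moved by a median of 1.46 percentage points between the fields, and by more than 20 points in 515 members (2.91%). In 1825 members (10.2%) the new junction had more reads than the leading annotated junction at the same known site. A known site at which no annotated junction had a read was used by 431 members. Sites in exons had a median share of 3.49%, sites in introns 4.80%, donors before the gene 11.3% and acceptors beyond its end 13.6%.

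The members together held 1119265 reads, 1.11% of the 100399256 junction reads, of which 52704888 were in R1 and 47694368 in R2. A member had a median of 21 reads (quartiles 13 and 43), against 226 reads in the 156029 annotated junctions that passed the same thresholds. At the threshold itself stood 1393 members with 10 reads. Examples are a new donor of Atp6v1h with 9 reads in R1 and 1 in R2, a new acceptor of Pantr1 with 10 and 0, and one of Srgap2 with 3 and 7. Another 1588 junctions of the same kind had 9 reads and fell outside, such as those of Mff with 7 reads in R1 and 2 in R2, Cops7b with 9 and 0 and Ilkap with 5 and 4. By reproducibility, 264 members stood at 0.079, the highest value inside, among them Abr with 23 reads in R1 and 1 in R2, Gtpbp2 with 17 and 5 and Vps35 with 4 and 16. The next value, 0.136, held 150 junctions outside, among them Tmem87a with 18 reads in R1 and 0 in R2, Wdr19 with 1 and 17 and Pnp2 with 7 and 9.

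**Figure D3:**
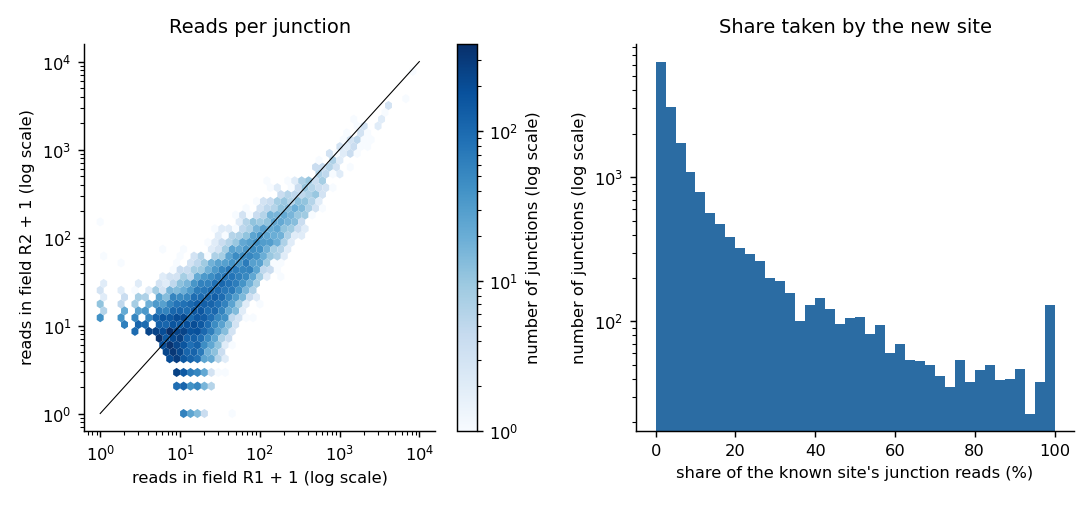
Left, reads of each member in field R1 (horizontal axis, log scale after adding 1) and field R2 (vertical axis, same scale), with darker hexagons for more members. Right, number of members (vertical axis, log scale) by share of the reads at the known site (horizontal axis, %), with a median of 4.48% and 1154 members at 50% or more.

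Of the 12 members with the most reads, 10 had more reads than the leading annotated junction at the same known site, and 8 lay in genes above 300 TPM. The highest was in Uchl1, a neuronal ubiquitin hydrolase at 1191 ± 131 TPM (SD, n = 2). Its junction (mm9 chr5:67067562-67068170, + strand) had 8279 reads in R1 and 7754 in R2. Its acceptor lay 12 nt before the annotated one, in the intron, and carried C = 0. Its share was 83.2% (exact binomial 95% interval 82.7 to 83.7%, which as for all intervals here covers counting error only), with 81.8% in R1 and 84.7% in R2. The leading annotated junction at the same donor had 3198 reads, so most reads at this donor were placed at the new site. The bases at this intronic site were not read because no mm9 genome was used here. Whether a shift in read alignment placed them there was not tested.

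Prpf19, a core splicing factor, came next with 6530 reads in R1 and 3732 in R2 (chr19:10972384-10973472, + strand). Its acceptor lay 57 nt inside the exon and took 88.8% of the reads (88.2 to 89.4%), with 89.5% in R1 and 87.7% in R2, so the share stayed high in both fields while the reads themselves were fewer in R2. Mlf2, a myeloid leukemia factor family member, had 4010 reads in R1 and 2706 in R2 at an acceptor 21 nt inside its exon (chr6:124885464-124885640, + strand), with a share of 94.9% (94.4 to 95.4%). Ddx17, an RNA helicase, had 3963 reads in R1 and 3014 in R2 at the donor shown above, 6 nt upstream of the annotated donor (chr15:79360948-79362107, - strand). The Ddx17 share was 62.7% (61.8 to 63.6%), almost equal in R1 at 62.8% and in R2 at 62.5%. In each of these 3 genes the new site outweighed the annotated one in both fields.

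Further members among the 12 with the most reads were of other makes. Hnrnpa2b1, an RNA-binding protein of the hnRNP family, used a donor 1491 nt downstream of the nearest annotated donor, within another annotated exon of the gene, with 2388 reads in R1 and 1541 in R2 and a share of 97.5%. Ptprs, a receptor phosphatase of axons and synapses, and Myl6, a myosin light chain, entered with new sites in introns that bound unannotated exons, described below. Pisd-ps2, a pseudogene, had 4139 reads in R1 and 2858 in R2 at an acceptor 1678 nt before the annotated one. It and Tmem181a are known to have near-identical copies, which were not compared here, so the place of their reads is uncertain. The genes ENSMUSG00000086878 on chromosome 5, with 6965 reads at an acceptor 36 nt inside an exon and a share of 56.2%, and ENSMUSG00000091793 on chromosome 12, with 5272 reads at a donor 9 nt inside an exon and a share of 16.6%, had no symbol in the annotation used.

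The stretches printed above come from genes in which the new site took between 29.7 and 98.5% of the reads. Nyap1 had a share of 98.5%, Sgta 75.2%, Fxyd6, a regulator of the sodium pump, 60.4% with 1358 reads in R1 and 1309 in R2, and Tmeff1 29.7%. Atxn2l, a relative of ataxin, had 84.9% with 2018 reads in R1 and 1713 in R2 at an acceptor 18 nt inside its exon. Elavl3, a neuronal RNA-binding protein, had 54.7%, with 785 reads in R1 and 770 in R2, at an acceptor 21 nt inside. Ptbp2, the neuronal relative of the splicing repressor Ptbp1, had 53.1%, with 815 reads in R1 and 643 in R2. Srsf7, an SR splicing factor, had 1644 reads in R1 and 899 in R2 at the donor 9 nt inside its exon, and its share of 40.6% was similar in R1, at 39.4%, and in R2, at 43.1%. Plppr2, whose step is no multiple of 3, had 53.4%, and Neurl4 45.5%.

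Other members with offsets of 1 to 12 nt and many reads lengthened or shortened the exon by 3 nt. Celf3, a neuronal splicing regulator, used an acceptor 3 nt before the annotated one with 1953 reads in R1 and 1745 in R2, a share of 58.8%. Carmil3, an actin regulator, did so with 2062 reads in R1 and 1116 in R2, a share of 69.1%. Celf4 had 1389 reads in R1 and 1373 in R2 at +3 nt with C = 0, a share of 29.1%, and Fau, the precursor of a ribosomal protein, 1567 reads in R1 and 1028 in R2 at +3 nt, a share of 55.5%.

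Among members at known sites with 100 or more reads in all, the 10 named for the highest share all stood at 100%. They are given in order of reads, and the number of all members at 100% was not counted. Celsr3, an adhesion receptor that guides axons, led them with 682 reads in R1 and 588 in R2 at an acceptor 6 nt before the annotated one, and 1270 of 1270 reads allow a share from 99.7%. Zzef1 followed with 256 reads in R1 and 237 in R2 at a donor 87 nt downstream, in the intron. The others were 5730522E02Rik with 314 reads, Lrfn1, a synaptic adhesion molecule, with 265, the pseudogene Gm7964 with 251, Qsox1 with 234, Zfp236 with 219, ENSMUSG00000001379 with 204, Ksr1 with 196 and Wnk3 with 195. Gm7964, ENSMUSG00000001379 and Ksr1 carried C = 0 with steps of 3, 6 and 5 nt, and Gm7964, as a processed pseudogene, is uncertain.

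Steps by a multiple of 3 nt became more frequent with the share of the new site. Sites in coding sequence were not set apart from others here. Within 100 nt, 36.7% of the distances were multiples of 3 (exact binomial interval 35.6 to 37.7%), which was 41.2% of the acceptors and 28.9% of the donors. Where the share was 1% or less, multiples of 3 made up 30.5% (475 of 1558), and up to 5% they made up 31.9% (1074 of 3363). They made up 38.8% (841 of 2169) at shares up to 20%, 51.4% (375 of 729) up to 50% and 62.1% (236 of 380, 57 to 67%) above 50%. The highest class also stood apart without the steps of 1 to 3 nt. With distances of 4 to 100 nt, multiples of 3 made up 29.7%, 25.9%, 27.8% and 33.5% in the first 4 of these share classes and 52.8% (46.6 to 58.9%) in the highest. Members of 1 gene share their gene's reads, and the intervals do not cover that.

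**Figure D4:**
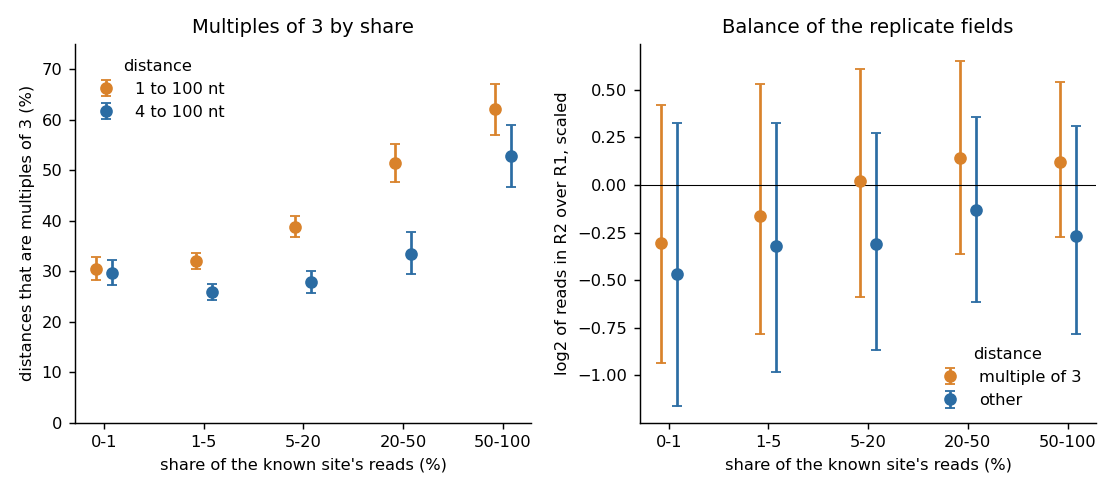
Left, percent of distances within 100 nt that are multiples of 3 (points, with exact binomial 95% intervals) in 5 classes of share, for all such members and for those 4 to 100 nt away. Right, median log2 of R2 over R1 reads scaled to all junction reads (points, bars from the lower to the upper quartile) in the same classes, for multiples of 3 and for other distances with C = 1. The left points lie at 30.5% in the lowest and 62.1% in the highest class, and on the right multiples of 3 lie above the other distances in every class.

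The fields R1 and R2 were not balanced alike for all members. Reads of each junction were scaled to the total of its field, 0.5 reads were added, and a junction was counted as differing where the fields differed 2-fold or more. Members were 2-fold or more higher in R2 in 2310 cases (12.9%), beside 12.3% of all 194056 junctions that passed the thresholds. They were 2-fold or more lower in R2 in 3372 cases (18.9%), beside 6.44% of all these junctions. This was not particular to the members. The part lower in R2 was 18.4% in unannotated junctions between known sites and 16.2% in those with both sites new, against 3.67% in annotated junctions. The parts higher in R2 were 13.1%, 18.9% and 11.6% in the same order. The median log2 of R2 over R1 was -0.16 in the members and 0.14 in the annotated junctions. It was -0.12 in unannotated junctions between known sites and -0.00027 in those with both sites new. The medians also differed among junctions with 100 reads or more. They were -0.12 in members and 0.09 in annotated junctions there, and 6.60% of the members were 2-fold or more lower in R2 against 1.56% of the annotated junctions. The rule that chose the members used the reads of both fields, and with 1 library for each field no test of the libraries is possible.

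The imbalance went with whether the distance was a multiple of 3. Among members with C = 1 within 100 nt, those at a multiple of 3 had a median log2 of R2 over R1 of -0.06 (n = 2888) and those at other distances -0.32 (n = 4759). At other distances 23.0% were 2-fold or more lower in R2 and 9.43% higher, while at multiples of 3 these parts were 14.3% and 13.9%. The difference was seen at acceptors, with -0.04 at multiples of 3 and -0.39 at other distances, and at donors, with -0.10 and -0.25. It was seen in each share class, from -0.30 and -0.47 at 1% or less to 0.12 and -0.27 above 50%. Single acceptor offsets show it in the reads themselves. The +3 nt members summed to 36769 reads in R2 and 40586 in R1, the +4 nt members to 7083 in R2 and 9935 in R1, and the +5 nt members to 4547 in R2 and 6470 in R1. Their medians were 0.13, -0.39 and -0.40 on the log2 scale.

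A field was at 0 in 0.133% of the annotated junctions, in 0.918% of the unannotated ones between known sites and in 2.95% of those with both sites new. Among the members it was rare as well, with 170 of 17873 (0.951%), of which 103 were at 0 in R2 and 67 in R1. Most rested on few reads, with a median of 11. Among the exceptions, chosen after their values were seen, Erc1, a scaffold of presynaptic sites, had 151 reads in R2 and 0 in R1 at an acceptor 12 nt before the annotated one, and Pds5a had 57 in R2 and 0 in R1 at an acceptor 3 nt before it, both with C = 0. Hoxa3, a hindbrain patterning gene, had 25 in R2 and 0 in R1 at a donor with C = 1. The level of the gene stood at 15.5 TPM in the library of replicate 2, against 1.34 TPM in that of replicate 1. Erc1, Pds5a and Hoxa3 each stood at a reproducibility value of 0.001, so a low value did not require reads in both fields.

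Pairs of members bounded exons that the Ensembl 65 annotation does not hold. A new acceptor reached from a known donor and a new donor leading to a known acceptor, both within introns of 1 gene and 1 to 500 nt apart, gave 1291 such exons in 1102 genes. Their lengths had quartiles of 66 and 142 nt, against 88 and 168 nt in 182894 annotated internal exons. Microexons of 27 nt or less were 66 of them (5.11%), against 1.50% of the annotated ones. Multiples of 3 made up 40.1% of all the unannotated exons, close to the 40.2% of the annotated ones, and 57.6% (38 of 66) of the microexons.

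The sequences of some of the microexons follow, in capitals, with 12 coding bases of each neighbouring exon in lower case, because these exons are short enough to be read whole. They were matched by gene and by the lengths of the exon and both introns to GENCODE vM21 (mm10 annotation) transcripts, which 28 of the 66 microexons allowed.
Ptprs: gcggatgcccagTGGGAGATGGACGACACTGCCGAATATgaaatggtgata
Ptprf: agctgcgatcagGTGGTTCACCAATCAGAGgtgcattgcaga
Clasp1: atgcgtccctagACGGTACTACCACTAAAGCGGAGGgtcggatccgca
Ank3: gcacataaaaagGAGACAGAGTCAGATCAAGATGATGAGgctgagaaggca
Agap1: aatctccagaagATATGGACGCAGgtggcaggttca
Cers6: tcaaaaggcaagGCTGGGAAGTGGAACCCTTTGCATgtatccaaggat
Tmem184b: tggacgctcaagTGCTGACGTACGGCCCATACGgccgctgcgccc
Ppp6r3: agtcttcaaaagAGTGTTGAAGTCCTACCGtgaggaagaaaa
Fryl: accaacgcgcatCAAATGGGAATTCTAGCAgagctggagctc
Fmnl1: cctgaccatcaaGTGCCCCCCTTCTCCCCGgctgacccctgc
All 10 printed here, chosen after their values were seen, have a length that is a multiple of 3, which held for 38 of all 66 microexons. The exon of Col4a1, matched in the same way but not printed, has 17 nt, which is no multiple of 3.

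Reads that skip an exon were counted only on the junction that joins the known donor and the known acceptor of its pair. The absence of such reads thus does not show that the exon is never skipped. Inclusion, the mean of the acceptor and donor reads over that mean plus the reads that skip the exon, put Ptprs first by reads. Its 27-nt exon (mm9 chr17:56567214-56567240, - strand) had 5524 reads into it, 4659 out of it and 1783 that skipped it, an inclusion of 74.1%, with 72.9% in R1 and 75.9% in R2. Ptprf, a phosphatase of the same family, had an 18-nt exon (chr4:117924681-117924698, - strand) with 494, 496 and 543 reads and an inclusion of 47.7%. Clasp1, which binds growing microtubule ends, had a 24-nt exon (chr1:120409282-120409305, + strand) with 414, 444 and 444 reads, 49.1%. The fields differed most for Clasp1 among these 3, with 44.0% in R1 and 52.6% in R2.

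Ank3, the scaffold ankyrin of the axon initial segment, had exons of 27 nt (210 reads in, 333 out, 52 skipping) and 33 nt (304, 284 and 58), included at 83.9% and 83.5%. Agap1 had a 12-nt exon with 483 reads in, 329 out and 80 skipping, an inclusion of 83.5%, and Cers6, a ceramide synthase, a 24-nt exon with 254, 324 and 43 reads, 87.0%. Tmem184b had a 21-nt exon at 54.9%, Ppp6r3 an 18-nt exon at 49.0%, Fryl an 18-nt exon at 63.8% and Fmnl1, a formin that acts on actin, an 18-nt exon at 96.0%. All of these were included in both fields, and only Clasp1, Ppp6r3 and Ptprf lay under 50% over both fields together. Of the matched coding microexons not printed, Celsr3 had an inclusion of 16.2%, Ptpra 13.7% and Col4a1 1.69%. The shortest unannotated exon, of 3 nt, was in Cyth2, with 74 reads in and 203 out.

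Of the 8 unannotated exons with the most reads, 2 were microexons, those of Ptprs and Tmem184b. Myl6 had a 45-nt exon with 3948 reads in, 3433 out and 404 skipping, an inclusion of 90.1%, and 90.3% in R2 alone. Ctbp1, a transcriptional corepressor, had a 193-nt exon with 2308, 2639 and 906 reads, 73.2%. Tusc3 had a 91-nt exon with 2389 and 1757 reads and none on the skipping junction counted here. Adgrl2, an adhesion receptor of synapses, had a 39-nt exon with 891, 1484 and 3221 reads, 26.9%, and Gm38393 a 104-nt exon at 71.2%. Fam131a had a 62-nt exon with 797 and 897 reads and none on the skipping junction counted here. The exons of Tusc3, Adgrl2 and Gm38393 had no counterpart of the same lengths in vM21.

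Most unannotated exons were seldom included. The median inclusion was 8.53%, with 8.64% in R1 and 8.06% in R2, and it was 21.2% in microexons against 8.11% in longer ones. An inclusion of 50% or more was reached by 183 exons (14.2%), by 164 of them in both fields, and 469 (36.3%) lay under 5%. Between the fields the inclusion moved by a median of 1.95 points. Multiples of 3 made up 42.1% (40 of 95, 32.0 to 52.7%) of the exons included at 1% or less, 32.2% (121 of 376) up to 5%, 38.9% (163 of 419) up to 20%, 46.4% (102 of 220) up to 50% and 50.8% (92 of 181, 43.3 to 58.3%) above 50%. The lowest class thus lay above the next, and no steady order ran through all 5. In vM21 369 exons (28.6%) had a counterpart, which was 39.3% of those included at 50% or more and 13.6% of those under 5%.

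**Figure D5:**
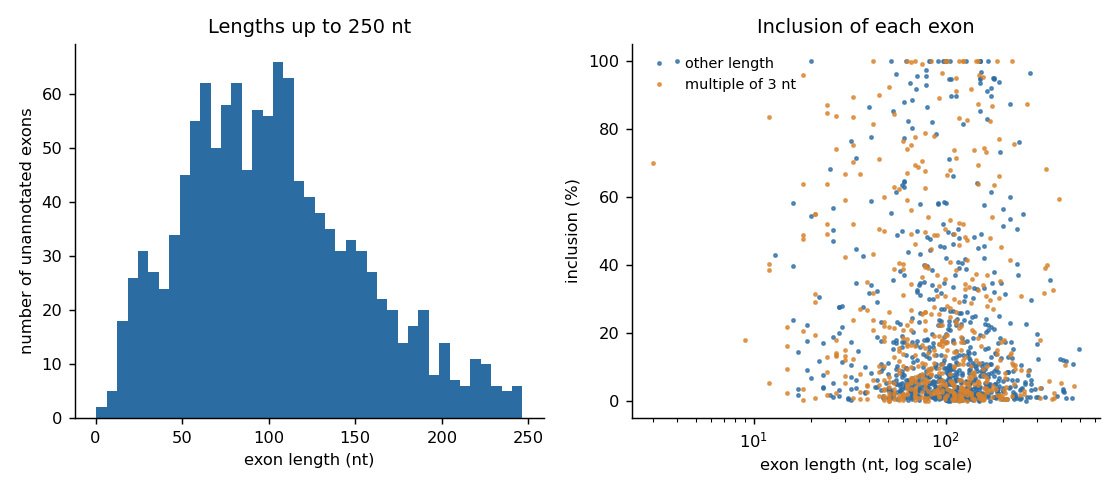
Left, number of unannotated exons (vertical axis) by length up to 250 nt (horizontal axis). Right, inclusion (vertical axis, %) of each exon against its length (horizontal axis, nt, log scale), with colours for multiples of 3. Exons of 27 nt or less number 66 and have a median inclusion of 21.2%, against 8.11% in the longer ones.

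New sites outside the host gene were of different distances. The 816 donors before a gene lay a median of 4770.5 nt from it. Of them 81.5% were outside any annotated gene, and 93 lay in an annotated exon of another gene. The 546 acceptors beyond a gene's end lay a median of 63294 nt away, and 79.7% were outside any gene. Add2, an adducin of the membrane skeleton, had the most reads of those before a gene with a symbol: 1730 in R1 and 1277 in R2 at a donor 49138 nt before the gene (chr6:85978941-86032705, + strand). Its share was 98.1% (97.6 to 98.6%), and the leading annotated junction at the same acceptor had 1 read. Lmo1, a transcriptional cofactor, had 954 reads in R1 and 539 in R2 at a donor 4630 nt before the gene, a share of 59.9%. It lies outside the rule for named members and was chosen after its values were seen.

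Usf2, a transcription factor, had 2 acceptors beyond its end, at 18288 and 18498 nt. The nearer had 1730 reads in R1 and 1587 in R2 and the farther 1213 and 1400, and both had a share of 49.9%. The leading annotated junctions at the same donors had 3323 and 2613 reads, almost the same numbers as the new ones. Such equality was more frequent outside the gene. Of members with 50 or more reads, 23 of 336 outside the host gene (6.85%) had a read number within 2% of that of the leading annotated junction at the same site, against 17 of 2015 in introns (0.844%) and 7 of 1523 in exons (0.460%). Whether reads placed at 2 copies of a sequence account for it was not tested, and the values of Usf2 are uncertain for this reason.

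The 378 members over 100 kb from a known site of their kind belonged to 215 genes and shared places. Within chromosome 17 from 6257075 to 6860490 lay 44 of them, with 32690 reads, offsets of 158266 to 545316 nt and a median share of 22.0%. They include the acceptor beyond Tmem181a, with 3432 reads in R1 and 2170 in R2 and a share of 49.2%. They also include the donors before ENSMUSG00000079733, with 1809 and 1764 reads in R1 and 1469 and 1338 in R2. Dnah7b, an axonemal dynein, had 23 of the 378, with 811 reads in all. Near-identical copies of these genes are known as background, no sequences of copies were compared here, and the members are given as uncertain.

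The members fell in 7115 host genes, of which 6914 had a symbol, and 94.3% lay in protein-coding genes. A host had a median of 2 members, 3038 hosts had 1 and 921 had 5 or more. The host's level went with having a member: hosts had a median of 31.8 TPM and the other spliced genes 0.345 TPM. A member was found in 1.37% of genes under 1 TPM, 25% at 1 to 10 TPM, 55.7% at 10 to 50 TPM, 72.8% at 50 to 200 TPM and 76.7% above that. Since 10 reads were needed, junctions of low genes could hardly enter.

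The genes with the most members were of different makes. ENSMUSG00000091793, without a symbol, had 37 with 14771 reads. Gm38393 had 33 with 7761 reads, of which 26 lay in introns and 7 before the gene. Adgrl2 had 30 with 5443 reads, Meg3 26 and Dnah7b 26. Meg3, an imprinted noncoding RNA at 3164 ± 955 TPM (SD, n = 2), shows many rare forms at a high level: its 26 members had a median share of 0.0659% and none was above 1.92%. In Dnah7b, at 9.23 ± 1.28 TPM, the median share was 30.4%. As a member needed 10 reads, shares as small as those of Meg3 could hardly enter at such a level.

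Host lists of neural and RNA-processing genes were counted beside the 62.1% of spliced genes at 10 TPM or more (5670 of 9128) that had a member. As having a member went with the gene's level, the lists' median levels are given as well. Of the 26 splicing regulators at 10 TPM or more 92.3% had a member, as did 81.8% of 33 SR proteins and hnRNPs, 73.7% of 38 chromatin regulators, 92.5% of 40 cytoskeletal genes, 74.5% of 47 genes of adhesion and guidance, 78.4% of 37 of synapse and channels, 86.4% of 22 of ribosomal proteins and translation and 85.7% of 7 noncoding RNA genes. The median level was 73.2 TPM in the splicing regulators, 167 TPM in the SR proteins and hnRNPs, 49.3 TPM in the chromatin regulators and 125 TPM in the cytoskeletal genes. It was 47.1 TPM in adhesion and guidance, 31.4 TPM in synapse and channels, 889 TPM in ribosomal proteins and translation and 402 TPM in the noncoding genes. Every list thus lay above the share over all such genes, at median levels at which 55.7 to 76.7% of all genes had a member. The number of introns per gene was not matched, and the smallest list held only 7 genes.

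The 28 splicing regulators had 149 members with a median share of 2.08% and 24 unannotated exons, the most of any list. Counts of exons were not scaled to the number or length of the genes. Beside the sites of Celf3 3 and 84 nt before annotated acceptors (the second with 1973 reads in R1 and 1051 in R2, a share of 33.6%), their exons were in Rbfox2 (32 nt, 527 reads in, 575 out, 4660 skipping, 10.6%), Mbnl1 (54 nt, 84.4%), Mbnl2 (36 nt, 27.1%), Nova1 (102 nt, 19.3%), Srrm4 (16 nt, 24.0%) and Msi2 (24 nt, 8.47%), among others. These proteins bind pre-mRNA and set exon use in neurons and muscle, and Srrm4 promotes microexons. The exons of Mbnl1, Mbnl2 and Srrm4 had a counterpart in vM21 and those named of Rbfox2, Nova1 and Msi2 had none.

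SR proteins and hnRNPs had 97 members with a median share of 2.26%. Hnrnpc, which packs pre-mRNA, had a new donor with 1287 reads in R1 and 902 in R2, a share of 57.5%, that bounds a 26-nt exon. The exon had 480 reads in, 2189 out and 1325 skipping. Its inclusion of 50.2% is thus the mean of 2 unequal sides and is uncertain. Srsf7 had besides its short donor a 460-nt exon included at 10.9%, with 10.8% in R1 and 10.9% in R2, and Hnrnpll an 83-nt exon at 9.45%. Chromatin regulators had 83 members with a median share of 4.43%. The nucleosome remodeller Chd3 had 447 reads in R1 and 407 in R2 at a donor 46 nt downstream (10.4%), Smarcc2 370 and 195 at an acceptor 360 nt downstream (11.2% in R1, 8.32% in R2), and Chd4 218 and 281 with C = 0 (9.26%). Kdm6a, a histone demethylase, had a 156-nt exon included at 95.3%.

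Cytoskeletal genes had 129 members with a median share of 0.857%. Tubb2a, a tubulin at 2826 ± 437 TPM, had 430 reads in R1 and 333 in R2 at a donor before the gene, which was a share of 1.48%. Tubulin genes have near-identical copies, so this member is uncertain. The new acceptor site of Ank3 with 136 reads in R1 and 333 in R2 had a share of 82.0%, and Clasp1 a donor with 160 and 284 (49.7%). For comparison, the Ank3 gene level averaged 99.6 ± 52.8 TPM (SD, n = 2), so its libraries lay far apart.

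Genes of adhesion and guidance had 188 members, the most of the lists, with a median share of 2.61% and 22 unannotated exons. This was also the longest list, with 50 genes, and the counts are not scaled to list size. Beside Ptprs and Ptprf, Robo2, a receptor of axon guidance, had a 12-nt exon at 40.4% (323 reads in, 405 out, 536 skipping) and Ncam1, a neural cell adhesion molecule, a 30-nt exon at 7.52%. Both had a counterpart in vM21. Adgrl1 had 426 reads in R1 and 374 in R2 at a new donor in an intron, a share of 32.9%.

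Genes of synapse and channels had 128 members and the highest median share of the lists, 8.90%. This list also had the lowest median level, 31.4 TPM. As a member needed 10 reads, a small share could enter only where the known site had many reads. The shares of the lists were not compared at like levels. Gria2, a subunit of AMPA glutamate receptors, had 290 reads in R1 and 172 in R2 at a new acceptor (32.0%) of a 41-nt exon included at 34.3%. Rims2, of the presynaptic active zone, had a 66-nt exon at 56.3%, and Camk2g one of 114 nt at 26.3%. The calcium channel genes Cacna1d and Cacna1e had exons of 84 nt at 100% and 129 nt at 82.6%. For Cacna1d no read lay on the only skipping junction that was counted. Cacna1a had 185 reads in R1 and 238 in R2 at a new donor (64.8%). Unc13a, which primes synaptic vesicles, had 261 and 208 reads at a donor 6 nt downstream with C = 0 and a share of 99.8%.

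In ribosomal proteins and translation, 55 members had a median share of 0.949%. Rps24 had 404 reads in R1 and 349 in R2 at a donor in an intron with a share of 78.2%, and 195 and 97 at another with 23.8%. The known sites held 963 and 1229 reads in all, in a gene at 1806 ± 85.3 TPM. These shares describe the reads at those known sites only. Eif4a2, a helicase of translation initiation, stood apart between the fields at a donor 4 nt downstream, with 465 reads in R1 and 207 in R2 and shares of 12.7% in R1 and 6.29% in R2. Noncoding RNA genes had 42 members with a median share of 0.206%. Meg3 had 358 reads in R1 and 173 in R2 at its strongest member (1.00%), and 260 and 95 at its next (1.04%). Gas5 had 295 and 158 reads at an acceptor 1 nt inside the exon with C = 0 (15.8%).

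Other deposited data covered most of the new sites, though they come from the same reads. Of the new sites 95.8% touched a contig, a stretch of continuous read coverage, with 98.0% in exons, 97.1% in introns, 84.4% before and 63.7% beyond the gene. An exon end of the authors' de novo models coincided with 11.2% of the new sites. An intron of the same length in the same gene was found in GENCODE vM21, a later annotation, for 3618 members (20.2%), against 98.8% of the annotated junctions.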

How the data were processed

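Splice junctions of mm9, deposited by the authors with read counts for 2 replicate fields and their sum, were analysed as deposited. No source used here names the aligner. The deposited reproducibility value of junctions and contigs is a fraction, for which low is taken as reproducible. For junctions, a low value did not require reads in both fields. The contig positions came from the same kind of table. TPM and expected counts per gene were estimated by the authors on mm10 with GENCODE M4, per the file notes deposited with the samples, and RPKM values of mm9 genes were made by the authors on Ensembl 65, per the same notes. Expected counts on genes summed to 103493289 in replicate 1 and 97539730 in replicate 2.

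Introns were taken from consecutive exons of each transcript in the authors' mm9 exon table. They numbered 243332, and 100% of the junctions tagged annotated and 0% of the others matched one. Coordinates are given in mm9 and counted from 1. Each new site was measured to the nearest annotated site of its kind in the host gene. Shares needed 20 reads at the known site, except in the medians by the bases between tandem acceptors, which had no such limit. Symbols came from GENCODE vM21 by gene identifier. Sequences came from its transcripts by place in the exon, which 6391 of 6912 exonic members allowed. Intronic letters were not read. Values of some single genes are left out here, although counts include them. Intervals are exact binomial at 95%. No p-value was computed, since both libraries form 1 group.

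The members, the host lists and the thresholds were chosen with earlier results of these data known. Members named are the 12 with the most reads, the 10 with the highest share, the 8 with the most reads at 1 to 12 nt, the 6 outside the host gene, the 8 exons and 5 genes with the most, the 3 with the most reads in each list, and 3 on each side of each threshold. Other genes with printed sequences or exons, and members at 0 in 1 field, were named after their values were seen. Alternatives covered the read and reproducibility thresholds, the strand, the gene type, the site measured to, the distance range, the reads behind exons, the pseudocount, RPKM and single replicates. Single fields, the tag C, junctions of low reproducibility value and the chromosome 17 stretch were added after the data were seen. The steps were tested on simulated junctions. The scripts ran under Python 3.11.15 with pandas 2.3.3 and numpy 2.4.6 for tables, scipy 1.17.1 for intervals and matplotlib 3.10.9 for plots.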

Additional observations from a re-analysis of the deposited data

How the results depend on the processing

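The number of members, 17873, followed the read threshold, with 9522 at 20 reads, 3874 at 50 and 1910 at 100, and a single field at 10 reads gave 9156 to 10887. It stayed within 1.5 times at 12618 with a reproducibility value of 0.01. The percent with a new acceptor was 50.9 at 20 reads and 50.6 to 52.0 in single fields. The percent within 100 nt was 43.0 measured to the site of the leading annotated junction, 47.0 at 20 reads, 47.7 at 50 and 47.7 at 100 reads, 44.6 with C = 1 and 46.0 to 47.4 in single fields. Multiples of 3 made up 28.9% at 4 to 100 nt, 28.9% in donors, 41.2% in acceptors, 37.8% with C = 1 and 37.7 to 42.3% in single fields. With exons of any gene 39.7% lay in an exon and 6.15% outside genes, and single fields gave 37.4 to 39.2% and 7.54 to 8.66%. The median share was 4.06 to 4.51% in single fields. Unannotated exons numbered 705 with 20 reads on both sides and 678 to 728 in single fields. The median host level was 31.4 TPM in each replicate alone (31.4 to 31.4) and 3.45 RPKM on mm9, another unit. Contigs at 0.1 or less touched 94.9%. Of 71 alternatives 31 moved, and 2 of 63 named members moved with low reproducibility values only. The cause was not tested except where fewer junctions or reads entered by construction. Depth limits members of low genes and shares under 1%. No paired analysis was possible because both libraries belong to 1 group and no test was made.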

Other observations

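Some members at the same known site had equal reads in R1 and equal reads in R2. There were 97 such sets with 221 members (1.24% of all), the largest of 6. Whether the same reads were placed at several sites was not tested.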
